A study of Mus musculus with 74 samples.

Results

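The immediate-early genes Fos, Fosb, Jun, Junb, Egr1, Atf3, Ier2 and Dusp1 and the heat-shock genes Hspa1a and Hspa1b were followed across mutant and control thymic epithelial cells. They are 10 of the 17853 genes in the deposited count tables, were picked by symbol, and were present in all 6 tables. All 10 passed the filter on low counts in each table. The cells, called mTEChi, were epithelial cells of the thymic medulla with much MHC class II on their surface, sorted from mice aged 4 to 7 weeks with mutant or wild-type alleles of Aire. Aire is a nuclear protein that lets these cells make proteins of other organs and show them to maturing T cells. Libraries were made by MARS-seq, which counts tags from the 3′ ends of transcripts. Each level below is in CPM, a library's count for the gene scaled to 1000000 counts in all.

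On the C57BL/6 (B6) background, the null line had 4 Aire-/-, 5 Aire+/- and 3 wild-type libraries. The Y86C line had 3 Y86C/Y86C, 3 +/Y86C and 3 wild-type libraries. The C313X line, in which C313X is a stop, had 3 C313X/C313X, 2 +/C313X and 3 wild-type libraries. The C442G line had 6 C442G/C442G, 5 +/C442G and 3 wild-type libraries. On the NOD background, the V303M line had 3 V303M/V303M, 3 +/V303M and 3 wild-type libraries. In a further NOD table, 3 Aire-/- libraries stood beside 3 Aire+/- libraries, 4 +/C313Y libraries beside 5 wild types titled alike, and 3 libraries labelled -/C313Y, with the null allele opposite C313Y, beside 3 wild types titled in another way. Of those 5 wild types, 2 carry another letter than Y after 313 in the title. How each allele was made is not given in the sources used here, the labels restrict no allele to a tissue, and nothing in them says whether libraries of a group came from separate mice, so p-values measure the spread between these libraries.

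Immediate-early genes are switched on within minutes of a signal, without new protein synthesis, by transcription factors that already wait at their promoters. Serum response factor with its ternary complex partners, which answer to the kinase ERK, and CREB are the best known of these. Fos, Fosb, Jun and Junb encode subunits of the transcription factor AP-1, Egr1 a zinc-finger factor and Atf3 a stress-induced factor of the ATF/CREB family, while Dusp1 encodes a phosphatase that switches MAP kinases off again. Ier2 is a further gene of the same early wave. Hspa1a and Hspa1b encode the inducible forms of the chaperone HSP70 and are driven by heat-shock factor 1 when proteins unfold. Enzymatic dissociation of a tissue is known to induce both groups, and per the labels' protocols Liberase TH and DNase were used on these thymi before sorting.

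RefSeq promoters (GRCm38.p6) were found for 8 of the 10 genes, all but Egr1 and Ier2. The 250 bases upstream of the start are shown for Fos, Atf3 and Dusp1, which hold the core of the CRE, the site of CREB and ATF factors, and for Hspa1a and Hspa1b, to show how alike the promoters of that pair are. Capitals mark TGACG on either strand in the first 3, and the heat-shock element dyad in the Hspa1 pair. They lie at chr12:85473640-85473889 on the plus strand for Fos, and on the minus strand at chr1:191183334-191183583 for Atf3, chr17:26508473-26508722 for Dusp1, chr17:34972157-34972406 for Hspa1a and chr17:34959239-34959488 for Hspa1b.
Fos: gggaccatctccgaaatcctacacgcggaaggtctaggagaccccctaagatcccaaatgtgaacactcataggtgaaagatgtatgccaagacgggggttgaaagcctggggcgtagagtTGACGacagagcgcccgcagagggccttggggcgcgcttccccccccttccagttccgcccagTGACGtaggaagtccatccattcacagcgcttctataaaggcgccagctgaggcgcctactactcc
Atf3: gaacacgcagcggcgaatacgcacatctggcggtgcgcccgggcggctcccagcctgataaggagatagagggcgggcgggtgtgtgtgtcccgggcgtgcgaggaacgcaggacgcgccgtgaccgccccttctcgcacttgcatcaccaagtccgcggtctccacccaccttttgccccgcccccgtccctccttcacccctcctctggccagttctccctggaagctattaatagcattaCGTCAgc
Dusp1: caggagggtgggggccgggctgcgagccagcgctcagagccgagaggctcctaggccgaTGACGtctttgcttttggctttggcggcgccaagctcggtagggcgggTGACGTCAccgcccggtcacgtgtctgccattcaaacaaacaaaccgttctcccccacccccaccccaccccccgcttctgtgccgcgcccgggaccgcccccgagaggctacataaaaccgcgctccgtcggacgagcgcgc
Hspa1a: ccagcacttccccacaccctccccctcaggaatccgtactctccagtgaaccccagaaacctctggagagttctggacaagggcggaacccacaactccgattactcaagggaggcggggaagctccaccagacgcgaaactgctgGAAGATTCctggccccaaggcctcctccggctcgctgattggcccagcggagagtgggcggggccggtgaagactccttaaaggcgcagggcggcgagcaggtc
Hspa1b: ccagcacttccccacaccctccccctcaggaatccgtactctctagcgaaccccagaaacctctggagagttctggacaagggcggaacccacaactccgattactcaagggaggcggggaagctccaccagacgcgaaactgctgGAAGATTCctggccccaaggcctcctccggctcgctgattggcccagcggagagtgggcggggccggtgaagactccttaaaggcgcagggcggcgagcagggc

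The CRE core TGACG, searched on both strands, was in 5 of the 8 upstream regions (Fos, Fosb, Junb, Atf3 and Dusp1), against 17.9% of 27025 RefSeq promoters read over the same length. In Dusp1, matches on opposite strands overlap in the palindrome written TGACGTCA. The heat-shock dyad, searched as GAANNTTC or TTCNNGAA, each its own reverse complement, was in 3 of the 8 (Jun, Hspa1a and Hspa1b), against 12.9% of all promoters. CCAAT was in 4 (Jun, Junb, Hspa1a and Hspa1b), against 34.5%, and TATAA in Fos alone, against 23.5%. No match to the AP-1 site TGANTCA, held by 6.87% of promoters, or to the CArG box, held by 1.40%, lay in these 250 bases of the 8 genes, which says nothing of sites outside that window. Hspa1a and Hspa1b differed at 3 of the 250 upstream bases.

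The 73 libraries that could be assigned to a group held 1016619 to 7225403 counts each. The epithelial marker Epcam lay between 101 and 545 CPM in all tables and H2-Aa, an MHC class II chain, between 8282 and 27617 CPM, while the T cell marker Cd3e was at 0 to 10.2 CPM in the 5 tables that list it. Other markers of blood cells were higher: Cd4 lay between 5.83 and 57.9 CPM, Cd8a between 0 and 20.3 CPM and the myeloid marker Lyz2 between 312 and 1297 CPM. Aire tags were called higher in every B6 homozygote, for example 3162 ± 364 CPM in B6 Aire-/- (SD, n = 4) and 2125 ± 79.4 CPM in wild type (SD, n = 3). A 3′ tag outside the altered part of the gene cannot check the genotype label. Changes are given below as log2 fold changes with standard errors from edgeR's quasi-likelihood test, fitted on all genes of a table with TMM scaling, and the adjusted p of a call was under 0.05 after Benjamini-Hochberg adjustment over every gene tested. Scaling by library totals alone lowered the median change of all genes by 0.25 in Y86C/Y86C, 0.20 in C313X/C313X and in C442G/C442G, 0.11 in B6 Aire-/-, 0.15 in NOD Aire-/- and 0.13 in -/C313Y (log2, each against its control).

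**Figure D1:**
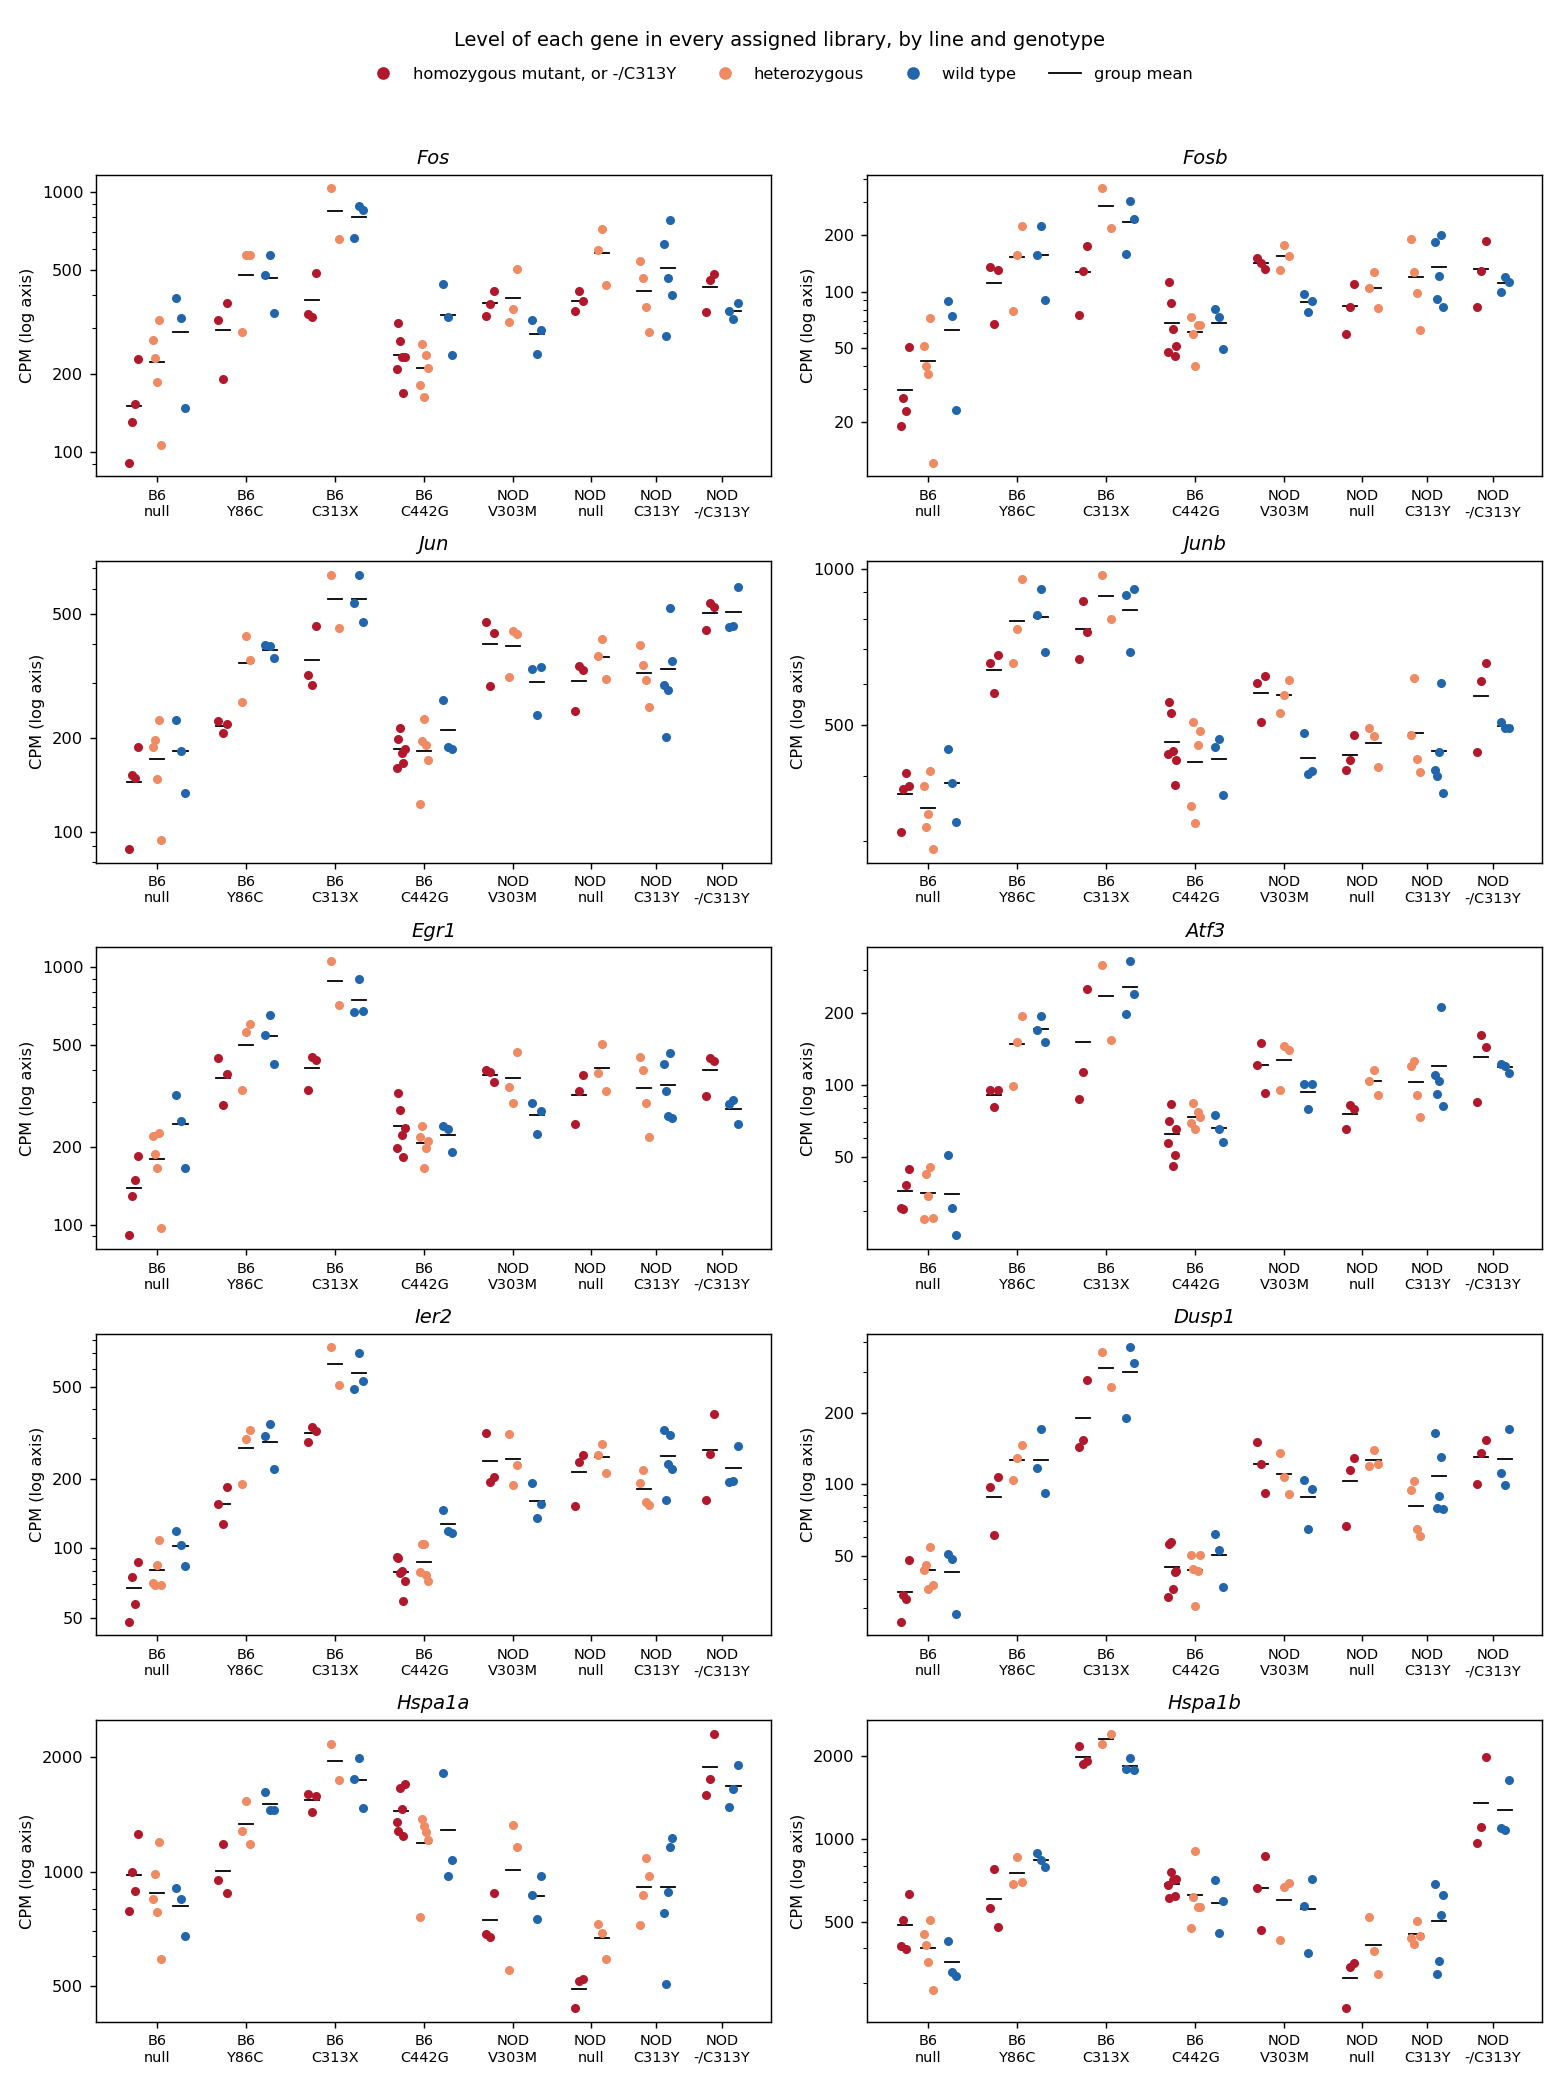
Level of each of the 10 genes in every assigned library, in CPM on a log axis, by line, with homozygous mutant (or -/C313Y), heterozygous and wild-type libraries in separate colours from left to right and 1 point for each library. Libraries of the B6 C313X line sit high and those of the B6 null line low for most genes, whatever their genotype.

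On B6, the levels of these genes differed more between mouse lines than between genotypes of a line. Fos ranged from 90.9 CPM in 1 of the B6 Aire-/- libraries to 1030 CPM in +/C313X library 3, Fosb spanned 29.3-fold over the 73 libraries, Ier2 15.4-fold and Junb 3.37-fold. Library +/C313X 3 was the highest of all for Fos, Fosb, Jun, Junb, Egr1 and Ier2. Hspa1a had its extremes in other lines, from 438.9 CPM in NOD Aire-/- library 404 to 2304 CPM in -/C313Y library 3. Hspa1b ran from 243 CPM in the same NOD Aire-/- library to 2416 CPM in +/C313X library 8. Levels of a gene count its tags in the sorted pool, so fewer expressing cells and less RNA per cell cannot be told apart.

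Among B6 wild types, which carry no mutant allele, each of the 10 genes was called in the joint test of differences between the 4 lines, in which 63% of all genes were called. Ier2, the gene with the lowest p, had 488, 703 and 530 CPM in C313X wild types, 305, 345 and 220 CPM in Y86C wild types, 147, 119 and 116 CPM in C442G wild types and 119, 103 and 84 CPM in null-line wild types. The C313X and Y86C wild types overlapped neither each other nor the remaining lines, whereas the C442G and null-line wild types overlapped (F = 58.5, adjusted p = 5.27e-12, edgeR). Atf3 had 198, 328 and 238 CPM in C313X wild types and 51.1, 30.8 and 23.7 CPM in null-line wild types. Dusp1 had 191, 379 and 327 CPM in C313X wild types and 50.7, 48.5 and 28.3 CPM in null-line wild types.

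In pairs of B6 wild types, all 10 genes were called higher in C313X than in the null line, where 21.3% of all genes were, with log2 differences of 1.13 to 2.87 and a median of 1.81. The largest were Atf3 (2.87 ± 0.32), Dusp1 (2.87 ± 0.30) and Ier2 (2.52 ± 0.22). Y86C wild types had 8 of the 10 called higher than the null line (8.21% of all genes), C442G wild types 2 (8.65%). C442G wild types had 6 called lower than Y86C wild types (6.94%), and C313X wild types had 6 called higher than Y86C (23.8%) and 9 called higher than C442G (19.7%). Line, table and any shared handling of a table's libraries cannot be told apart. Marker genes of other cells moved with line too: the summed thymocyte markers (10 or 11 of 11 in a table) were at 167 to 222 CPM in C313X wild types, 70.5 to 77.1 CPM in Y86C, 91.6 to 156 CPM in C442G and 87.2 to 110.0 CPM in null-line wild types. The summed myeloid markers (9 or 10 of 11 in a table) were at 1283 to 2133 CPM in C313X wild types, 802 to 851 CPM in Y86C, 819 to 1028 CPM in C442G and 793 to 984 CPM in null-line wild types. Their part in the line differences was not tested.

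**Figure D2:**
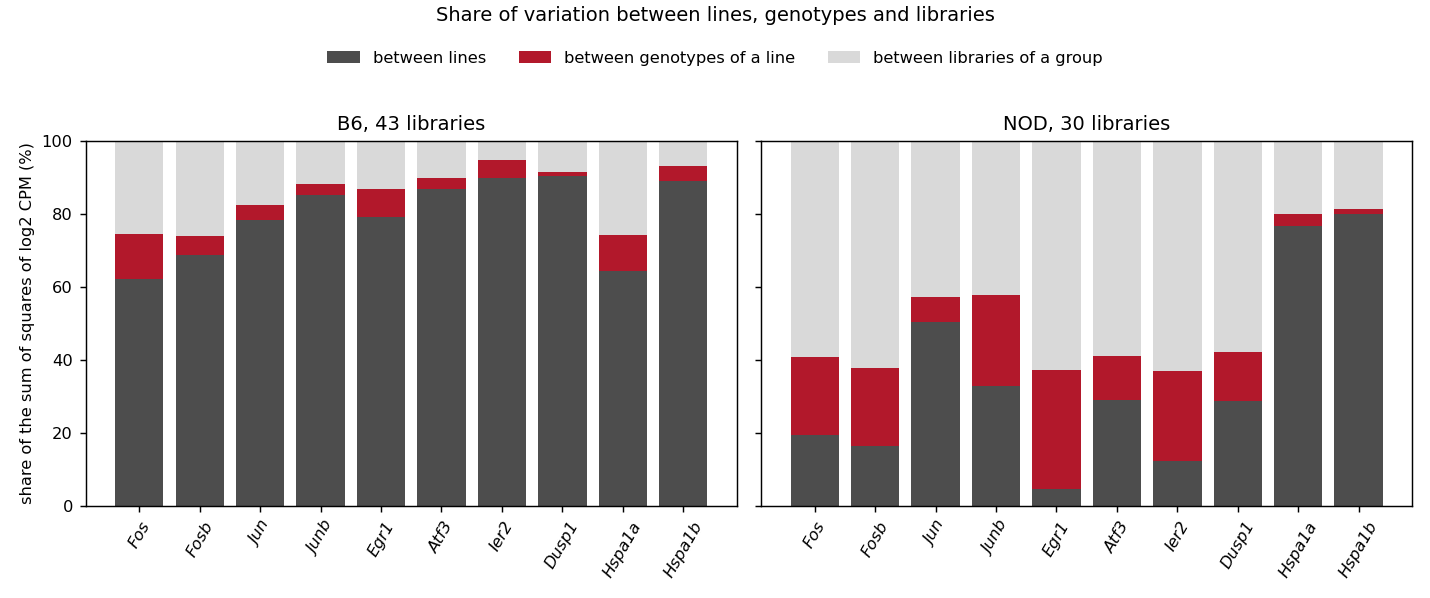
Share of each gene's sum of squares of log2 CPM, in percent, for B6 (43 libraries) and NOD (30 libraries). It is split into the parts between lines, between genotypes within a line and between libraries within a group. On B6 the line share is 62.3% to 90.3% for the 10 genes, and on NOD the Hspa1 pair stands apart at 76.6% and 80.1%. The NOD sets taken as lines differ in the genotypes they hold, so their line part also includes genotype.

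Splitting each gene's sum of squares of log2 CPM over the 43 B6 libraries placed 62.3% (Fos) to 90.3% (Dusp1) between lines, with a median of 82.2% over the 10 genes, beside a median of 34.3% over all genes tested. Genotype within a line took 1.22% (Dusp1) to 12.3% (Fos), beside a median of 25.7% over all genes. Line holds 7.14% of the degrees of freedom and genotype within line 19.0%. For NOD, a line was V303M or a title form of the other table: null, C313Y or -/C313Y. These sets do not hold the same genotypes, and null has no wild type, so the part between them also includes genotype. Over 30 NOD libraries, the line share had a median of 28.9% over the 10 genes, beside 27.5% over all genes. It was 76.6% for Hspa1a and 80.1% for Hspa1b, and 4.61% for Egr1, of which genotype within line took 32.8%. These shares describe the libraries and were not tested.

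Among NOD wild types, Fos, Jun, Hspa1a and Hspa1b were called in the test of differences between the 3 sets (19.6% of all genes called). Hspa1b had 684, 322, 361, 527 and 625.2 CPM in the 5 wild types set against +/C313Y and 1098, 1080 and 1645 CPM in the 3 set against -/C313Y. Hspa1a had 782, 508, 886, 1160 and 1226 CPM in those 5 and 1478, 1648 and 1903 CPM in those 3. The 2 sets share strain, genotype label and table, and did not overlap for either gene. These were 2 of 10 lower in the 5 without overlap, against 4.47% of all genes. In the table's own fit the difference was -1.54 ± 0.23 for Hspa1b (adjusted p = 9.98e-05) and -1.06 ± 0.20 for Hspa1a (adjusted p = 0.000771), 5 wild types over 3. Jun, at 295, 201, 285, 523 and 354 CPM in the 5 and 453, 457 and 610 CPM in the 3, overlapped and was called at -0.80 ± 0.21 (adjusted p = 0.0204). With those 3 genes, 3 of the 10 were called lower in a comparison that called 5.98% of all genes lower. The Jun call ended without library 2 (adjusted p = 0.0553) or library 3 (0.169) of the 3 wild types set against -/C313Y, and in a fit of the 2 sets alone (0.095).

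Other chaperones moved with the same split. Of 23 further heat-shock and chaperone genes tested, 9 were called lower in the 5 wild types and 0 higher, with a median change of -0.18 beside 0.03 for all genes. Hsp90aa1, the inducible cytosolic HSP90, averaged 13 CPM in the 5 and 95.1 CPM in the 3 (-3.05 ± 0.21). Hspa8, the constitutive HSP70, averaged 103 CPM in the 5 and 570 CPM in the 3 (-2.65 ± 0.27). Dnajb1, an HSP40 co-chaperone of HSP70, averaged 141 CPM in the 5 and 273 CPM in the 3 (-1.15 ± 0.13). The authors' values before and after batch correction were also compared. Pairs of libraries within the 6 of the -/C313Y title form had r of 0.89 to 0.98. Within the other 15 of that table r was 0.43 to 0.96, and between the sets it was -0.94 to -0.69. No label names a batch, so a separate correction of the 6 is inferred, and further sets among the 15 remain possible.

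Between strains, NOD wild types had lower Junb (-0.35 ± 0.09, adjusted p = 0.000646) and lower Egr1 (-0.39 ± 0.14, adjusted p = 0.0153) than B6 wild types, 2 of the 10 genes in a test that called 23.7% of all genes lower. Strain and table cannot be told apart in it.

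**Figure D3:**
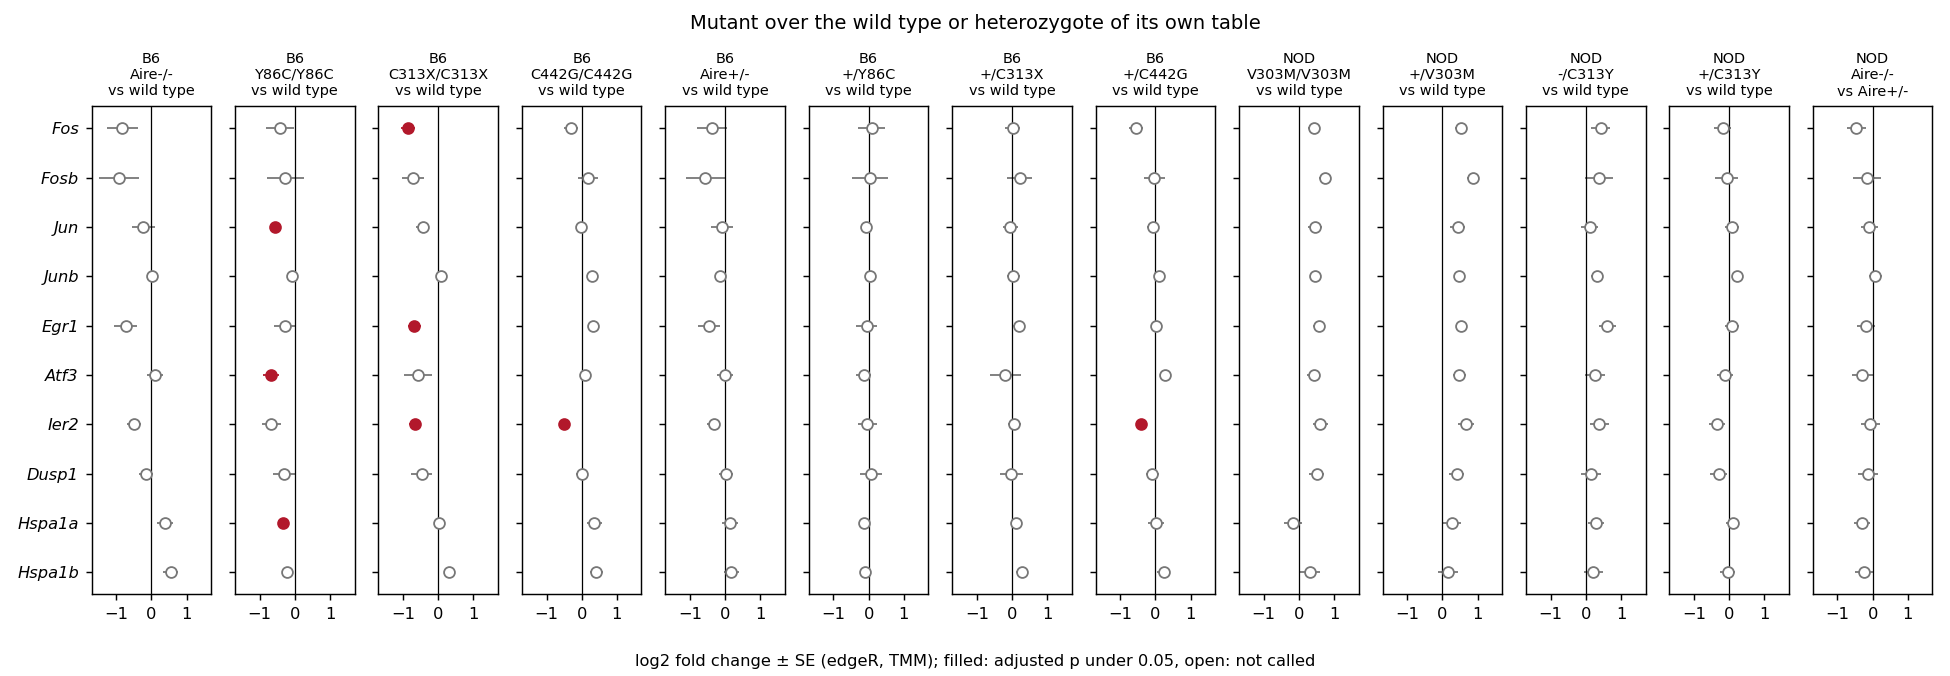
Log2 fold change of each gene, with its standard error, in each mutant group over the control of its own table, from edgeR with TMM scaling, with called values in a filled symbol. All called values lie below 0, and the values of V303M/V303M and -/C313Y lie mostly above 0 without being called.

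In the Y86C line, homozygotes had lower Jun, Atf3 and Hspa1a than wild type. Jun had 227, 208 and 223 CPM in Y86C/Y86C libraries, against 397, 393 and 360 CPM in wild type. The groups lay far apart and the spread within each was small, at -0.56 ± 0.12 (adjusted p = 0.000778, edgeR). Atf3 had 94.9, 81.1 and 95.8 CPM in Y86C/Y86C libraries, against 169, 194 and 151 CPM in wild type, also without overlap (-0.68 ± 0.22, adjusted p = 0.0324). Hspa1a had 951, 1181 and 880 CPM in Y86C/Y86C libraries, against 1616, 1455 and 1450 CPM in wild type, without overlap (-0.34 ± 0.10, adjusted p = 0.00434).

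These 3 of 10 genes were called lower in a comparison that called 27.9% of all genes lower, and 6 of 10 had ranges that did not overlap and lay lower, against 44.6% of all genes. All 10 estimates were negative, with a median of -0.32 beside -0.03 for all genes. Ier2 did not pass the test, at 155, 128 and 184 CPM in Y86C/Y86C libraries, against 305, 345 and 220 CPM in wild type (adjusted p = 0.0823). With library totals as the scale, Junb, Ier2 and Hspa1b passed as well. The Atf3 call ended when any of wild types 1 and 2 and Y86C/Y86C libraries 4, 5 and 9 was left out (-0.76 to -0.56 over all libraries left out in turn, adjusted p of 0.0758 to 0.11 where it ended), and the Hspa1a call without Y86C/Y86C library 9 (-0.24, adjusted p = 0.0509). The myeloid marker sum was 1098 to 1266 CPM in Y86C/Y86C and 802 to 851 CPM in wild type, and the thymocyte sum 50.6 to 60.9 CPM in Y86C/Y86C and 70.5 to 77.1 CPM in wild type.

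Other marker lists differed more between these groups. The immature mTEC sum (6 of 7 markers) was 548 to 564 CPM in Y86C/Y86C and 1011 to 1500 CPM in wild type, with Krt5, a keratin of basal epithelium, at 93.7 ± 13 CPM in Y86C/Y86C and 511 ± 154 CPM in wild type (SD, n = 3 each). Itga6 of the same list went the other way and was called higher, at 245 ± 11.9 CPM in Y86C/Y86C and 166 ± 13.4 CPM in wild type. Trp63 of that list was not called. The cortical epithelial sum (7 of 7) was 6905 to 7972 CPM in Y86C/Y86C and 3728 to 4131 CPM in wild type, much of it Tbata, at 3469 ± 276 CPM in Y86C/Y86C and 1802 ± 126 CPM in wild type. Cxcl12 of that list was called lower, at 4.95 ± 0.94 CPM in Y86C/Y86C and 16.7 ± 6.19 CPM in wild type. Prss16, at 50.1 and 49.6 CPM, was not called. The fibroblast and endothelial sum (7 of 9) was 428.05 to 514 CPM in Y86C/Y86C and 245 to 291 CPM in wild type, but its members went both ways: the proteoglycan gene Dcn had 431.8 ± 44.4 CPM in Y86C/Y86C and 100.02 ± 7.10 CPM in wild type, and the collagen gene Col1a1 had 1.89 ± 0.71 CPM in Y86C/Y86C and 96.0 ± 9.28 CPM in wild type. The myeloid list split too, with 4 of 8 tested markers called higher, among them Lyz2, and 3 called lower (Adgre1, Csf1r and Itgam). The part of these marker differences in the calls was not tested.

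Against heterozygotes, Jun alone was called in Y86C/Y86C, 1 of 10 genes where 23% of all genes were called lower. Jun had 227, 208 and 223 CPM in Y86C/Y86C, against 261, 425 and 356 CPM in +/Y86C (-0.48 ± 0.12, adjusted p = 0.00426). In +/Y86C against wild type, 0 of 10 genes were called by edgeR or DESeq2 and 0 had an unadjusted p under 0.05 (3.37% of all genes called).

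In the C313X line, homozygotes had lower Fos, Egr1 and Ier2 than wild type. Fos had 340, 329 and 486 CPM in C313X/C313X libraries, against 661, 881 and 853 CPM in wild type. The highest mutant library lay below the lowest wild type (-0.86 ± 0.20, adjusted p = 0.00889, edgeR). Egr1 had 335, 449 and 436.7 CPM in C313X/C313X libraries, against 668, 896 and 676 CPM in wild type, without overlap (-0.68 ± 0.17, adjusted p = 0.0161). Ier2 had 289, 334 and 322 CPM in C313X/C313X libraries, against 488, 703 and 530 CPM in wild type, without overlap (-0.67 ± 0.17, adjusted p = 0.0158).

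Thus 3 of 10 were called lower where 15.2% of all genes were, and 4 of 10, with Jun, lay lower without overlap, against 31.2% of all genes. Junb, Hspa1a and Hspa1b had estimates of 0.08, 0.03 and 0.31, which did not pass and which library totals as the scale turned to -0.12, -0.18 and 0.10. The Fos call ended without C313X/C313X library 10 (-0.76, adjusted p = 0.0519). The Egr1 and Ier2 calls ended without wild type 6 (-0.54 and -0.51, adjusted p of 0.0533 and 0.0546) or without C313X/C313X library 1 (-0.59 and -0.65, adjusted p of 0.0726 and 0.0622). The thymocyte marker sum was 88.3 to 113 CPM in C313X/C313X and 167 to 222 CPM in wild type, the immature mTEC sum (6 of 7 markers) 887 to 1158 CPM in C313X/C313X and 1212 to 1888 CPM in wild type, and the cortical epithelial sum (7 of 7) 4144 to 5416 CPM in C313X/C313X and 3137 to 3622 CPM in wild type. In the immature mTEC list, Itga6 was called higher in C313X/C313X (0.53 ± 0.13) and Krt15 lower (-2.40 ± 0.39). Krt5, Krt14, Pdpn and Trp63 were not called. In the cortical epithelial list, Cxcl12 lay lower in C313X/C313X without being called, and Prss16 was not called. The myeloid sum (9 of 11) was 1299 to 1427 CPM in C313X/C313X and 1283 to 2133 CPM in wild type, and the fibroblast and endothelial sum (9 of 9) 183 to 831 CPM in C313X/C313X and 290 to 348 CPM in wild type, both overlapping. Their part was not tested.

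Against the 2 heterozygotes of that line the same 3 genes were called lower, where 12.1% of all genes were: Fos at -0.88 ± 0.21 (adjusted p = 0.0162), Egr1 at -0.86 ± 0.19 (0.00974) and Ier2 at -0.73 ± 0.19 (0.0189). Those heterozygotes had 1030 and 659 CPM of Fos. All 3 calls ended without +/C313X library 3, at -0.59 for Fos (adjusted p = 0.203), -0.62 for Egr1 (0.126) and -0.51 for Ier2 (0.219), where the lone remaining heterozygote is assumed to vary like the other groups. The Fos call also ended without C313X/C313X library 1 (adjusted p = 0.0651) or 10 (0.0748), and the Ier2 call without any of the 3 homozygotes, 1 (0.067), 10 (0.0537) or 14 (0.0514). In +/C313X against wild type 0 of 10 were called by edgeR or DESeq2 and 0 at an unadjusted p under 0.05; 0% of all genes were called.

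In the C442G line Ier2 was the gene that passed, in homozygotes and in heterozygotes. In the 6 C442G/C442G libraries it was lowest at 59.2 CPM, with a median of 79.2 and a highest value of 91.7 CPM, against 147, 119 and 116 CPM in wild type. Every homozygote lay below every wild type (-0.49 ± 0.14, adjusted p = 0.00624, edgeR), 1 of 10 genes where 23.1% of all genes were called lower. Ranges that lay lower without overlap were held by 1 of 10, against 29.7% of all genes. In +/C442G, Ier2 had 78.8, 104, 104, 76.4 and 72.1 CPM, also below the wild types (-0.42 ± 0.15, adjusted p = 0.0391), 1 of 10 where 13.4% of all genes were called lower. There too 1 of 10 lay lower without overlap, against 17.8% of all genes.

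The homozygote call ended without wild type 86 (-0.36, adjusted p = 0.0763). The heterozygote call ended without wild type 86 (-0.29, adjusted p = 0.236) or 89 (-0.46, 0.0596), or without +/C442G library 81 (-0.38, 0.0854), 87 (-0.36, 0.0911) or 91 (-0.37, 0.0808), and with no filter on low counts (-0.38, 0.0564). Fos, the AP-1 subunit, had 181, 260, 162, 236.1 and 210 CPM in +/C442G, against 443, 331 and 235.7 CPM in wild type, which overlap through library 82 at 260 CPM and library 87 at 236.1 CPM, just above the lowest wild type at 235.7 CPM (-0.55 ± 0.20, adjusted p = 0.0526). DESeq2, RLE factors, library totals and a fit of the 2 compared groups alone each called it. Egr1 and Junb stood above 0 in C442G/C442G without passing (0.31 ± 0.14 and 0.30 ± 0.13, adjusted p of 0.0832 and 0.0713; 0.11 and 0.10 with library totals as the scale), and both were called with no filter on low counts. Marker sums of other cells differed in C442G/C442G as well. The myeloid sum was 1244 to 1373 CPM in C442G/C442G, 1099 to 1572 CPM in +/C442G and 819 to 1028 CPM in wild type, with 4 of 9 tested markers called higher and 4 lower in C442G/C442G. The immature mTEC sum (6 of 7 markers) was 560 to 704 CPM in C442G/C442G and 772 to 1386 CPM in wild type, the cortical epithelial sum (7 of 7) 5196 to 6335 CPM in C442G/C442G and 3182 to 4161 CPM in wild type, and the fibroblast and endothelial sum (6 of 9) 270 to 402 CPM in C442G/C442G and 137 to 179 CPM in wild type. Against its list's sum, Itga6 of the immature mTEC list was called higher in C442G/C442G (0.82 ± 0.11), and Trp63 was not called. In the cortical epithelial list, Cxcl12 and Prss16 were not called. The part of these marker differences was not tested.

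In the B6 null line 0 of 10 genes were called, where 36.6% of all genes were. Fos had 90.9, 130, 153 and 227 CPM in Aire-/- libraries, against 389, 327 and 147 CPM in wild type. The groups overlapped, with 1 wild type, at 147 CPM, inside the range of the mutants, and the estimate was -0.83 ± 0.44 (adjusted p = 0.182, edgeR). Fosb was likewise at 19.2, 26.9, 23.1 and 50.3 CPM in Aire-/- libraries, against 89.3, 73.9 and 23.2 CPM in wild type (-0.92 ± 0.57, adjusted p = 0.255). Ier2 had 48.1, 75.4, 57.5 and 87.1 CPM in Aire-/- libraries, against 119, 103 and 84 CPM in wild type (-0.50 ± 0.20, adjusted p = 0.0728). DESeq2 called Ier2 and no other of the 10, and 2 of 10 had an unadjusted p under 0.05. The biological coefficient of variation, the spread between libraries of a group beyond counting error, was above the median of this table (12.1%) for 9 of the 10 genes and below it for Junb (10.8%); it was highest for Fosb (53.4%) and Fos (39.9%). Markers of other epithelial cells differed in this line as well. Krt5 had 454 ± 69.1 CPM in Aire-/- and 1076 ± 51.6 CPM in wild type, and Tbata 2978 ± 301 and 1385 ± 23.4 CPM (SD, n = 4 and 3). Trp63 of the immature mTEC list and Foxn1 of the cortical epithelial list were not called. The part of these markers was not tested. In B6 Aire+/- against wild type, 0 of 10 genes were called by edgeR or DESeq2, 0 at an unadjusted p under 0.05, and 0.48% of all genes were called.

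The 4 B6 lines were pooled in a fit of their 43 libraries with additive terms for line and for genotype, so heterozygotes also enter the line levels. In homozygotes against wild type, Ier2 changed by -0.51 ± 0.10 (adjusted p = 3.03e-05, edgeR) and Fos by -0.51 ± 0.17 (adjusted p = 0.0103), 2 of 10 lower where 32.1% of all genes were. Hspa1b changed by 0.33 ± 0.10 (adjusted p = 0.00345), 1 of 10 higher where 30% of all genes were. The Ier2 estimate was -0.67 in Y86C, -0.67 in C313X, -0.49 in C442G and -0.50 in the null line. With library totals as the scale, the Hspa1b value was 0.11 and not called, and 7 genes were called, all lower, where 47% of all genes were. The Fos call ended without the C313X line (-0.44, adjusted p = 0.0636), and the Hspa1b call without the null line (0.22, 0.0730) or without the C442G line (0.26, 0.0562). Of the 10 genes, 0 had a homozygous effect that differed between the 4 lines in the test of that difference (4.56% of all genes called), with Egr1 at the lowest adjusted p, 0.140, and 1 at an unadjusted p under 0.05. The pooled heterozygous effect was called for 0 of 10 by edgeR, with 0 at an unadjusted p under 0.05 (15.3% of all genes called).

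On NOD, the estimates for V303M/V303M against wild type lay above 0 for 9 of the 10 genes, all but Hspa1a, and 0 were called, where 0.0657% of all genes were. Fosb had 151, 141 and 132 CPM in V303M/V303M libraries, against 96.9, 77.9 and 89 CPM in wild type. The groups were well separated, with an estimate of 0.73 ± 0.14 and an adjusted p of 0.0642 (edgeR); DESeq2 called it. Egr1 had 399, 391 and 358 CPM in V303M/V303M libraries, against 297, 224 and 276 CPM in wild type, without overlap (0.57 ± 0.16, adjusted p = 0.335). Of the 10 genes, 5 lay higher without overlap (Fos, Fosb, Junb, Egr1 and Ier2), against 4.07% of all genes. An unadjusted p under 0.05 (edgeR) was reached by 8, and the share of all genes at that threshold is not given here. The immediate-early genes deviated together between libraries of a group (r of 0.50 to 0.89 in 28 pairs), so these are not counts of independent results. The myeloid marker sum was 924 to 1089 CPM in V303M/V303M and 1188 to 1478 CPM in wild type. Cortical epithelial markers differed too: Ccl25 averaged 478 CPM in V303M/V303M and 312 CPM in wild type, Tbata 842 and 613 CPM, and Prss16 81.5 and 62.0 CPM. None of them was called, and Cxcl12 and Foxn1 overlapped. The part of these markers was not tested.

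In +/V303M against wild type, all 10 estimates were above 0, from 0.15 to 0.86, and 7 had an unadjusted p under 0.05, a count with the same limits. edgeR called 0 of 10 and 0% of all genes. Fosb had 130, 178 and 155 CPM in +/V303M libraries, above the 3 wild types (0.86 ± 0.15, adjusted p = 0.247), and DESeq2 called it. Of the 10 genes, 2 lay higher without overlap, against 2.32% of all genes. Both V303M groups were set against the same 3 wild types.

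The difference between the homozygous effect of V303M on NOD and the mean of the 4 B6 homozygous effects was tested in a fit of all 6 tables, chosen after seeing the values. It was called for Ier2 (1.13 ± 0.28, adjusted p = 0.00125), Fos (0.98 ± 0.37, adjusted p = 0.0332) and Egr1 (0.86 ± 0.29, adjusted p = 0.0184), 3 of 10 higher where 18.9% of all genes were. These 3 were also called with RLE factors, as was Jun. With library totals as the scale 8 of 10 were called, all higher and all the immediate-early genes, where 26.3% of all genes were called higher. Allele, strain and table cannot be told apart in it.

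In NOD Aire-/- against Aire+/-, 0 of 10 genes were called (13.3% of all genes called), 0 with an unadjusted p under 0.05 and 0 by DESeq2. Fos had 349, 415 and 379 CPM in Aire-/- libraries, against 595, 717 and 440 CPM in Aire+/- libraries. It lay lower without overlap (-0.46 ± 0.28, adjusted p = 0.359), as did Atf3 and Hspa1a, 3 of 10 beside 29.3% of all genes. Hspa1a had 438.9, 518 and 523 CPM in Aire-/-, against 731, 693 and 592 CPM in Aire+/-. Fitted on these 6 libraries alone, Fos (-0.48 ± 0.14, adjusted p = 0.0231) and Hspa1a (-0.31 ± 0.11, adjusted p = 0.0389) were called, 2 of 10 where 21.2% of all genes were. No wild type shares the title form of these libraries.

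For +/C313Y against its 5 wild types, 0 of 10 were called (17.4% of all genes called), 0 at an unadjusted p under 0.05 and 0 by DESeq2. Hspa1b had 438.1, 416, 505 and 443 CPM in +/C313Y, within the wild-type range of 322 to 684 CPM. For -/C313Y, with no wild-type allele, all 10 estimates were above 0 (9 with library totals as the scale, where Jun lay below 0), with a median of 0.30 beside -0.03 for all genes, and 0 were called (22.7% of all genes called; 1 at an unadjusted p under 0.05 and 0 by DESeq2). Egr1 had 316, 442.1 and 433.3 CPM in -/C313Y libraries, against 295, 306 and 246 CPM in wild type, without overlap (0.61 ± 0.25, adjusted p = 0.0796). It was 1 of 10 to lie higher without overlap, against 12.7% of all genes. Fitted on these 6 libraries alone, Fos (0.41 ± 0.14, adjusted p = 0.0409) and Egr1 (0.61 ± 0.15, adjusted p = 0.00617) were called, 2 of 10 where 24.1% of all genes were. With the replicate number as a block the same pair was called, at 0.40 ± 0.12 and 0.60 ± 0.13 (28.4% of all genes called).

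In that table the calls changed with the wild types used. Set against the 5 wild types of the other title form, -/C313Y had Hspa1a at 1.35 ± 0.20, Hspa1b at 1.75 ± 0.23, Jun at 0.91 ± 0.21 and Junb at 0.66 ± 0.16, all called (36.3% of all genes called). Set against the 3 wild types of the other title form, +/C313Y had Hspa1a at -0.96 ± 0.21, Hspa1b at -1.58 ± 0.25, Jun at -0.73 ± 0.23 and Dusp1 at -0.74 ± 0.26, all called (29% of all genes called). NOD Aire-/- against all 8 wild types had Hspa1a at -1.16 ± 0.20 and Hspa1b at -1.12 ± 0.24, both called (35.4% of all genes called). Against the 5 titled as +/C313Y, Hspa1a was at -0.76 ± 0.21 and called and Hspa1b at -0.54 ± 0.25 and not called (adjusted p = 0.101), 1 of 10 where 31.9% of all genes were called. Against the other 3, Hspa1a was at -1.82 ± 0.23, Hspa1b at -2.08 ± 0.28 and Jun at -0.79 ± 0.25, all called (33.5% of all genes called). Genotype and title form cannot be told apart in these settings.

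**Figure D4:**
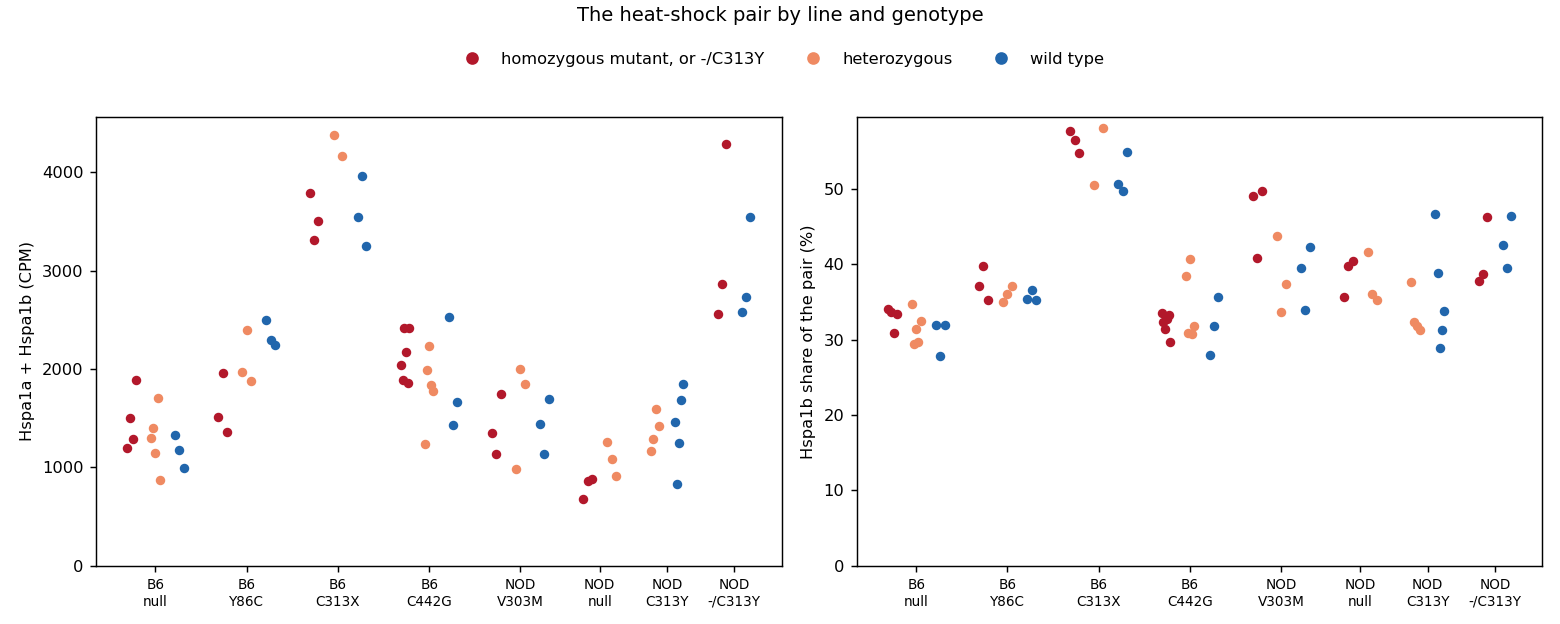
Summed level of Hspa1a and Hspa1b, in CPM, and the percent of that sum that is Hspa1b, by line, with 1 point for each of 73 libraries. The 8 libraries of the C313X line have the highest shares, 49.7% to 58.1%, and the 6 libraries of the -/C313Y title form have sums near theirs, 2559 to 4286 CPM, with shares of 37.8% to 46.4%.

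Hspa1a and Hspa1b lie in tandem on chromosome 17 and their coding sequences agree at 1915 of 1926 aligned positions (99.4%). The last 300 bases of their transcripts, where 3′ tags would fall, agree at 50.1%, so tags from that stretch could be told apart. Where the tags lay, and how reads matching both genes were handled, is not given in the sources used here. Hspa1b made up 49.7% to 58.1% of the pair in the 8 C313X-line libraries and 27.9% to 49.7% in the other 65. The ranges meet at their edges, at wild type 6 of the C313X line and V303M/V303M library 53. The pair sum was 3254 to 4377 CPM in the C313X line and, overlapping that range, 2559 to 4286 CPM in -/C313Y and its wild types, where Hspa1b took 37.8% to 46.4%. By the medians of lines these were the highest and the next highest in both measures, with a sum of 3668 CPM and a share of 54.8% in the C313X line and 2796 CPM and 41.1% in the -/C313Y set. In C313X/C313X, Hspa1b had 2183, 1872 and 1920 CPM, against 1800, 1970 and 1785 CPM in wild type, which overlap. Tags of Junb, which overlaps Prdx2, and of Dusp1, which overlaps Ergic1, could include those of the neighbour on the opposite strand, as the use of strand in counting is not given in the sources used here.

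**Figure D5:**
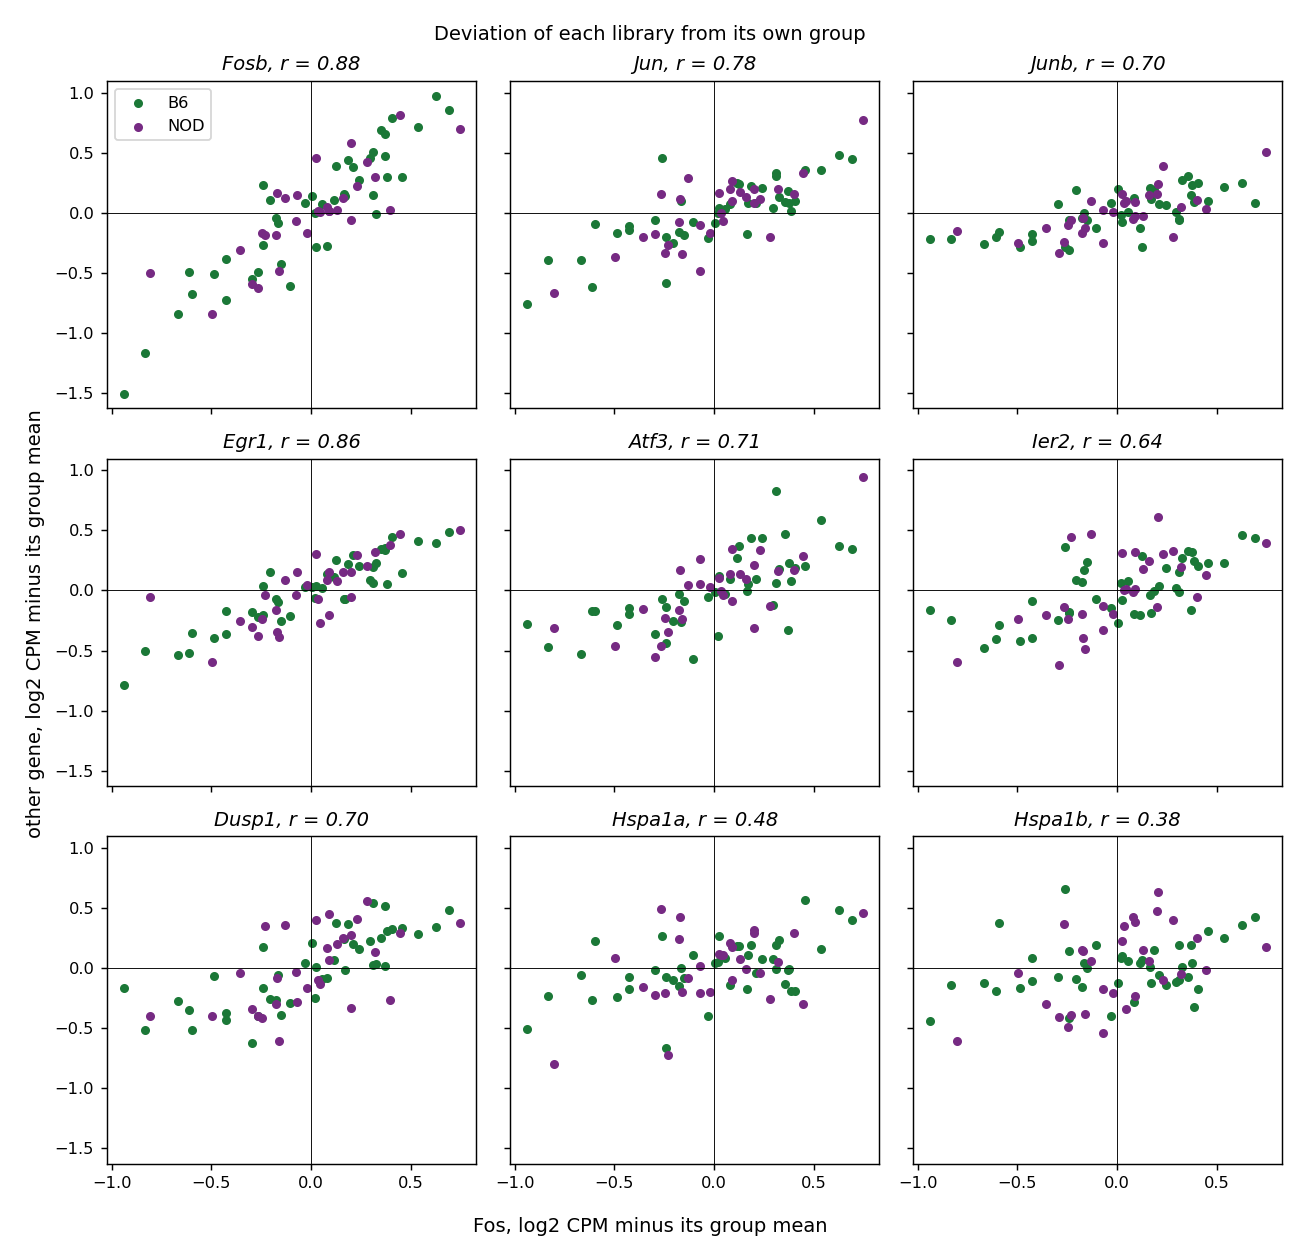
Log2 CPM of the other 9 genes (vertical axes) against that of Fos (horizontal axis), each as the deviation from its group mean, for 73 libraries. Fosb and Egr1 follow Fos most closely (r of 0.88 and 0.86) and Hspa1b least (r of 0.38).

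Libraries of a group deviated together. With each log2 CPM value taken as its deviation from the group mean, Fos correlated over 73 libraries with Fosb at Pearson r = 0.88 (Spearman rho = 0.85), Egr1 at 0.86 (0.85), Jun at 0.78 (0.72), Atf3 at 0.71 (0.75), Junb at 0.70 (0.71), Dusp1 at 0.70 (0.72) and Ier2 at 0.64 (0.64). For these 7 the permutation p was 1e-05 for r and for rho, the smallest that 100000 permutations within groups can give, and 1.29e-05 adjusted over the 9 genes. Hspa1a followed at r = 0.48 (rho = 0.39, adjusted permutation p of 0.000697 and 0.00488) and Hspa1b at 0.38 (rho = 0.36, adjusted permutation p of 0.00326 and 0.00514). Without the 2 libraries farthest from the Fos median, r was 0.86 for Fosb, 0.84 for Egr1 and 0.34 for Hspa1b.

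The relation held in each strain for the other 7 immediate-early genes, with r of 0.69 to 0.92 over 43 B6 libraries and 0.56 to 0.80 over 30 NOD libraries. Hspa1b did not pass on B6 (r = 0.31, adjusted permutation p = 0.093) and Hspa1a did not on NOD (r = 0.44, adjusted permutation p = 0.111). The values of a library share its total count and scaling factor. Fos deviations had r = 0.07 with the total count (adjusted permutation p = 0.572), -0.32 with the thymocyte marker sum (0.107), -0.29 with the cortical epithelial sum (0.112), and 0.23 with the fibroblast and endothelial sum (0.131), and of 7 such measures compared 0 passed.

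As a description over the 45 pairs of the 10 genes, r was 0.50 to 0.89 in the 28 pairs of immediate-early genes (median 0.66), 0.12 to 0.73 in the 16 mixed pairs (median 0.30) and 0.75 between Hspa1a and Hspa1b. Jun was the immediate-early gene nearest the heat-shock pair, with r of 0.73 to Hspa1a and 0.64 to Hspa1b. Of 9720 genes with a mean of at least 10 CPM, those that deviated most like the mean of the 8 immediate-early genes included Zfp36, which encodes an mRNA-destabilising protein (r = 0.71), Socs3, a cytokine-signal inhibitor (0.70), Ppp1r15a (0.64), Maff (0.56) and Jund (0.55). Most like the mean of the heat-shock pair were Dnajb1 (0.83), Ddit4 (0.65) and Klf2 (0.63).

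Other genes of these pathways were called in both directions. Over all genes tested, 21.7% were called higher and 27.9% lower in Y86C/Y86C, 7.85% and 15.2% in C313X/C313X, 19.5% and 23.1% in C442G/C442G, 17.7% and 18.9% in B6 Aire-/-, and 9.83% and 12.9% in -/C313Y. Of 23 to 25 early-response feedback and signalling genes tested, 5 were called higher and 12 lower in Y86C/Y86C (median -0.48 beside -0.03 for all genes), 1 higher and 3 lower in C313X/C313X (median -0.32), 7 higher and 4 lower in C442G/C442G (0.15), 5 higher and 2 lower in B6 Aire-/- (-0.03), 7 higher and 0 lower in -/C313Y (0.21), and none in V303M/V303M (0.11). Of 13 to 16 other immediate-early transcription factor genes tested, 3 were called higher and 4 lower in Y86C/Y86C (median 0.03), 2 higher and 2 lower in C313X/C313X (-0.28), 5 higher and 4 lower in C442G/C442G (0.12) and 2 higher and 0 lower in B6 Aire-/- (0.11). Dusp2, a MAP kinase phosphatase related to Dusp1, fell in all 4 B6 homozygotes, to 7.55 CPM in Aire-/- against 27.2 CPM in wild type (-1.76 ± 0.29), and by 2.09 in Y86C, 2.01 in C313X and 1.65 in C442G on the log2 scale. It also fell in NOD Aire-/- (-1.41 ± 0.31), and was at -0.05 ± 0.17 in V303M/V303M, which did not pass. Sgk1, a serum- and glucocorticoid-induced kinase, fell in the 4 B6 homozygotes too (-1.12, -1.61, -1.48 and -1.10 in the order null, Y86C, C313X, C442G).

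Ppp1r15a, which encodes GADD34 and restores translation after stress, rose in the same 4 (0.75, 0.89, 0.98 and 1.23), and so did the zinc-finger factor gene Klf6 (0.66, 1.04, 0.61 and 0.98). Ppp1r15a thus rose with homozygous genotype while it followed the immediate-early genes between libraries of a group. Of the 23 other heat-shock and chaperone genes, 1 was called higher and 10 lower in B6 Aire-/- (median -0.31), and 0 higher and 7 lower in Y86C/Y86C (median -0.15), among them Hspb1, a small heat-shock protein gene, at 132 CPM in Y86C/Y86C against 426 CPM in wild type (-1.45 ± 0.10). Of 14 unfolded-protein and integrated stress response genes, 7 were called higher and 2 lower in B6 Aire-/- (median 0.25) and 6 higher and 2 lower in Y86C/Y86C (0.23). Of 8 metal and oxidative stress genes, 4 were called higher and 3 lower in B6 Aire-/-, 4 and 2 in Y86C/Y86C, 2 and 2 in C313X/C313X and 4 and 0 in C442G/C442G. Among them, the metallothionein gene Mt1, whose product binds zinc and copper, rose in all 4, to 2246 ± 443 CPM in Aire-/- (SD, n = 4) against 831 ± 59.0 CPM in wild type (SD, n = 3; 1.53 ± 0.13), and by 0.85 in Y86C/Y86C, 1.33 in C313X/C313X and 1.07 in C442G/C442G on the log2 scale. Of 5 genes for serum response factor and its partners, 2 were called higher in Y86C/Y86C, 2 higher in C442G/C442G and 0 in B6 Aire-/-, C313X/C313X, V303M/V303M or -/C313Y.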

How the data were processed

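Per the labels' protocols, mTEChi were sorted from dissociated thymi and MARS-seq libraries were made. The tools listed in the submitters' processing notes are STAR 2.4.2a for build mm10, HTSeq, cutadapt, bcl2fastq and DESeq2; the annotation, use of strand and collapse of molecular identifiers are not given in the sources used here. The authors deposited raw counts per gene and library in 6 tables, in which the highest count of every listed gene is 6 or more, and only these counts were tested. The authors also deposited signal values, which are counts over size factors, and log2 values after ComBat. These served to infer which libraries were corrected alike, as no label names a batch. A further 106 columns of per-sample values were not used.

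Groups came from titles and genotype labels. The test was edgeR's quasi-likelihood F test (version 4.0.16, R 4.3.3) with robust dispersion, TMM and filterByExpr, with all groups of a table in 1 fit and Benjamini-Hochberg adjustment over all tested genes. Joint fits over shared genes took 14547 genes in 4 B6 tables, 14388 in 2 NOD tables and 14531 in 6 tables. Correlations used log2 CPM with a prior count of 2, centred by group, and 2-sided permutation within groups. Also tried were RLE factors, DESeq2 1.42.0, all genes unfiltered, only the compared groups, other wild types, a replicate block, each library left out, each B6 line left out, and, chosen after seeing the data, scaling by library totals. Scripts were tested on simulated data. The members, gene lists and tests were chosen with earlier results of these data known. Genes that are not members were named as members of the lists or as the most alike by correlation; 1 gene chosen by correlation is not reported here. Depth per library bounds precision for low genes, since Fosb rested on as few as 26 counts.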

Additional observations from a re-analysis of the deposited data

Results flagged for a closer look

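Hspa1a was at 759 CPM in +/C442G library 81, far from the other 4 +/C442G libraries, which lay between 1213 and 1378 CPM. Atf3 was at 211 CPM in NOD wild type 78, far from the other 4 wild types of that set, at 81.9 to 110 CPM, and Fos, Fosb, Jun, Junb and Egr1 were also highest there within the set. Of 60 combinations of gene and group large enough to examine, these 2 stood out, and chance marks about 1 in 20.

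The homozygous effect of V303M on NOD, set against the mean homozygous effect of the 4 B6 lines in 1 fit of 6 tables, differed for Ier2 (1.13), Fos (0.98) and Egr1 (0.86, log2 differences). The test was chosen after seeing the data, and allele, strain and table cannot be told apart in it.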

How the results depend on the processing

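Numbers of the 10 genes called changed by more than 1.5 times as follows, and the cause was not tested unless the setting itself gives it. With library totals, 1 (Ier2) was called in B6 Aire-/-, 6 in Y86C/Y86C against wild type, 4 in Y86C/Y86C against +/Y86C, 2 in C442G/C442G, 2 in +/C442G, 7 in the pooled B6 homozygotes and 8 in the difference of the homozygous effect between V303M and B6 (3 in the reported fit). On that scale 47% of all genes were called lower in the pooled homozygotes (32.1% in the reported fit) and 26.3% higher in that difference (18.9% in the reported fit). With DESeq2, 1 (Ier2) was called in B6 Aire-/-, 2 in +/C442G and 1 (Fosb) in each of V303M/V303M and +/V303M. RLE factors gave 2 in +/C442G. Without a filter, C442G/C442G had 3 and +/C442G 0. With only the compared groups in the fit, C442G/C442G had 3, +/C442G 2, NOD Aire-/- against Aire+/- 2 (21.2% of all genes called) and -/C313Y 2 (24.1%). Other wild types gave 4 in -/C313Y (36.3% of all genes called) and 4 in +/C313Y (29%). For NOD Aire-/- they gave 2 with all 8 wild types (35.4%), 1 with the 5 titled as +/C313Y (31.9%) and 3 with the other 3 (33.5%). Where no share is printed, here or with libraries left out, the share of all genes is not given, so those counts cannot be set beside all genes.

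The replicate block could be fitted for -/C313Y alone and called 2 (Fos and Egr1), as did the 6 libraries without a block (28.4% and 24.1% of all genes called); the numbers pair these libraries weakly at most, since deviations of libraries with the same number correlated at 0.07, -0.05 and 0.19.

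With each library left out in turn, 1 to 4 were called in Y86C/Y86C against wild type and 1 to 3 against +/Y86C, 1 to 5 in C313X/C313X against wild type and 0 to 3 against +/C313X, 1 to 3 in C442G/C442G against wild type and 0 to 1 against +/C442G, 0 to 2 in +/C442G, 0 to 1 in B6 Aire-/- and 0 to 1 in V303M/V303M. No called value changed sign under any alternative. In all, the number called stayed within 1.5 times in 109 combinations of comparison and library left out and moved further in 24, and under the other settings it stayed within 1.5 times in 115 and moved further in 22. Groups of 2 to 6 libraries limit what can be called, and low counts limit Fosb and Atf3 most.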

Other observations

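In the B6 null line, 1 library is titled wild type but labelled Aire -/- and entered no group. It had 300 CPM of Fos, 58.1 of Fosb, 210 of Jun, 417 of Junb, 264 of Egr1, 52.2 of Atf3, 135 of Ier2, 52.7 of Dusp1, 1017 of Hspa1a and 413 of Hspa1b.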
